A study of Homo sapiens with 6 samples.

Results

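The genes of the autophagy core machinery and its cargo receptors were followed in MDA-MB-231BR cells that carried a short hairpin RNA (shRNA) against ACSS2. The set holds 40 genes, chosen by name for their known place in the pathway, of the 17721 genes in the deposited table, and all 40 were found there. The choice was made with earlier results of these data known, so the shares below describe the set and are not a blind test. MDA-MB-231BR is an established variant of MDA-MB-231 human breast cancer cells that homes to the brain. The cells of both groups were infected with lentivirus made in HEK-293T cells, selected with antibiotic and grown as monocultures in medium with serum, so every library comes from infected and selected cells. The ACSS2 shRNA group has 3 libraries with a hairpin against ACSS2, and the control shRNA group has 3 libraries with a control hairpin. Per the labels the libraries of a group are biological replicates, and a batch tag numbers them 1 to 3 in both groups. The labels do not say how many hairpin sequences were used per group. ACSS2 is the enzyme that makes acetyl-CoA from acetate in the cytosol and nucleus, and the series title places it upstream of E2F1, SLC7A11 and ferroptosis. The comparison here asks which autophagy transcripts differ when ACSS2 is targeted.

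Autophagy encloses cytoplasm in a double membrane, the autophagosome, and delivers it to lysosomes for degradation. The ULK1 kinase complex starts the process, a lipid kinase complex around PIK3C3 and BECN1 marks the site, and the ATG2 and ATG9 proteins supply lipid to the growing membrane. A pair of ubiquitin-like conjugation reactions then couples the ATG8 proteins (the LC3 and GABARAP subfamilies) to that membrane, where cargo receptors such as SQSTM1 bind them. TFEB and TFE3 are transcription factors that switch on lysosomal and autophagy genes when nutrients are scarce, and nuclear ACSS2 is known from other cancer cells as a partner of TFEB at such genes. Transcript levels do not measure autophagic flux, since LC3 and SQSTM1 proteins are themselves consumed by it.

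Library totals lay between 15048275 and 18608124 expected counts. The markers fixed for this line (VIM, CD44, AXL, CAV1, MSN and FOSL1) were all at 58.0 TPM (abundance scaled for transcript length and depth) or more, and the luminal markers ESR1, PGR, GATA3 and CDH1 did not exceed 3.66 TPM. Of 6 markers of blood, vessel and glial cells with a row in the table, 4 stayed below 1 TPM in every library. The exceptions were PECAM1, at up to 4.10 TPM, and the myelin gene MBP. MBP had 30.8, 44.5 and 64.6 TPM in ACSS2 shRNA libraries 1, 2 and 3, against 40.5, 52.8 and 73.6 TPM in control libraries 1, 2 and 3. ACSS2 itself had 11.1, 50.5 and 88.6 CPM (counts scaled for library size with TMM factors) in ACSS2 shRNA libraries, against 76.2, 71.2 and 164 CPM in control libraries. Within each number the ACSS2 shRNA library was the lower one, but the groups overlap, and the log2 difference was -2.76 in number 1, -0.49 in number 2 and -0.88 in number 3. Its log2 fold change was -1.05 (adjusted p = 0.504) without pairing and -1.31 (adjusted p = 0.00757) with pairing. DESeq2 with pairing gave an adjusted p of 0.129 for ACSS2. In the authors' deposited comparison, from DESeq2, ACSS2 has a log2 fold change of -1.07 with a q of 0.772.

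Every test is given in 2 forms. The unpaired fit compares the 3 ACSS2 shRNA with the 3 control libraries, and the paired fit also has a term for the replicate number. Libraries with the same number deviated together in all 3 numbers, so the paired fit was applicable. The choice decides most calls. Of 13003 genes tested, the unpaired fit called 3 higher and 6 lower in ACSS2 shRNA cells (0.0231% and 0.0461%), and the paired fit called 1657 higher and 1608 lower (12.7% and 12.4%). Of the paired calls 50.8% were higher. With limma on TPM and pairing the counts were 2302 and 1071, and 68.2% were higher. In the sentences below, "rose" and "fell" refer to the paired fit at an adjusted p under 0.05.

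Of the 40 autophagy genes 38 passed the filter on low counts, and the kinase ULK2 and the ATG8 gene MAP1LC3A did not. In the unpaired fit 0 of the 38 passed, with ULK1 nearest at an adjusted p of 0.0702, and 7 had an unadjusted p under 0.05, all with higher values in ACSS2 shRNA cells. Over all 13003 genes tested 1820 had such a p in that fit, 896 with higher and 924 with lower values. DESeq2 without pairing called 2, ULK1 and ATG7, where it called 1.54% of all genes higher and 2.22% lower. In the paired fit 10 of the 38 rose, 0 fell and 28 did not pass, so that 26.3% were called higher against 12.7% of all genes. The 10 were ULK1, ATG7, SQSTM1, ATG13, MAP1LC3B, GABARAPL1, OPTN, BNIP3, BNIP3L and ATG16L1. They lie in 4 of the 7 steps of the pathway, with 2 of 4 tested genes of the ULK1 complex, 2 of 10 for conjugation, 2 of 4 of the ATG8 family and 4 of 7 receptors. The lipid kinase complex (6 genes), the lipid supply genes (5) and the transcription factors (2) had 0 called. The median paired log2 fold change was 0.20 over the 38 genes and 0.02 over all genes tested. Of the 38, 29 had a positive and 9 a negative value, and of these 9 PIK3R4 and TFEB turned positive on the TPM scale. The median of all genes tested was 0.11 on that scale, above the values of PIK3R4 and TFEB. The calls rest on particular libraries. Leaving out number 3 kept the same 10, leaving out number 1 kept 5 of them (ULK1, ATG7, SQSTM1, ATG13 and BNIP3) and added ATG9A, and leaving out number 2 kept only ULK1 and ATG7. Calls were lost over all genes too. There the higher calls were 1657 with all numbers, 1555 without number 3, 1382 without number 1 and 664 without number 2. The excess of the set over all genes in the full paired fit therefore need not hold without number 2.

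**Figure D1:**
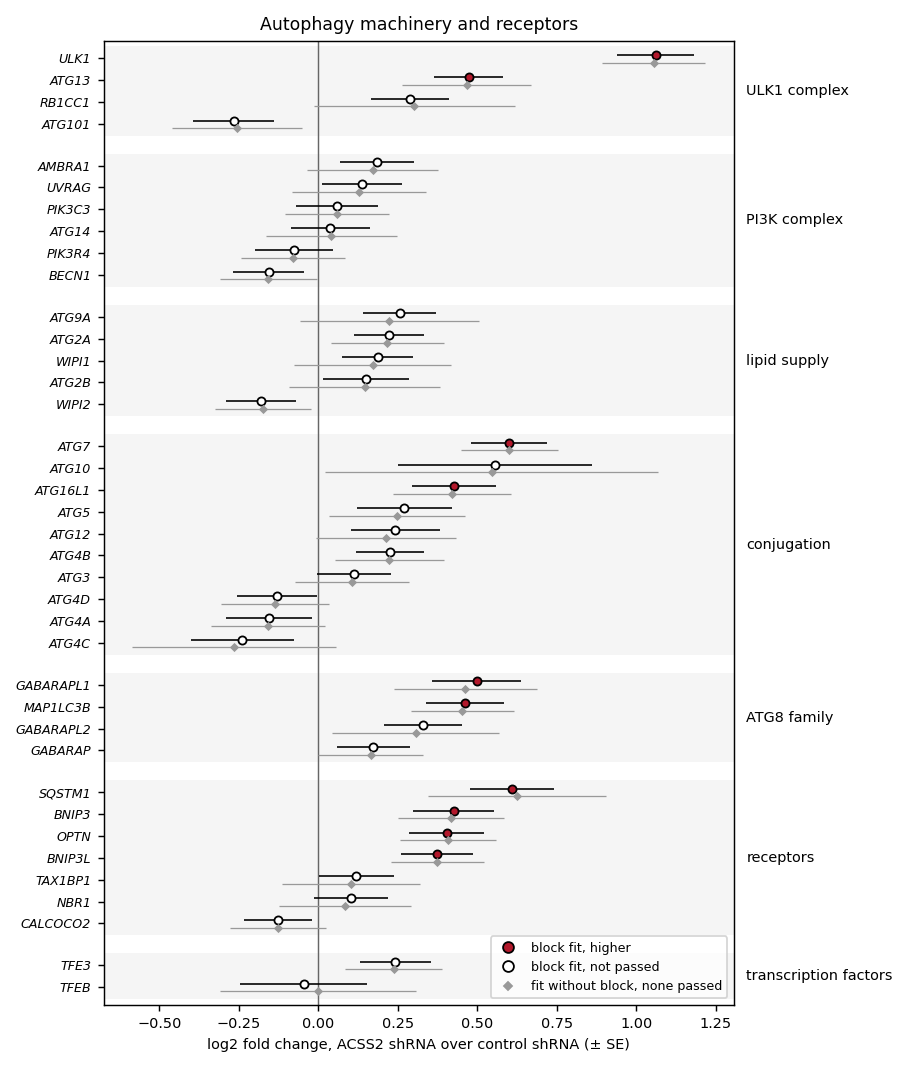
Log2 fold change of each tested autophagy gene, ACSS2 shRNA over control shRNA, by step of the pathway. Circles are the paired fit (block fit in the legend, filled where called) and grey diamonds the unpaired fit, with bars of 1 SE. The filled points run from 0.37 for BNIP3L to 1.06 for ULK1, and none is on the negative side.

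ULK1, the kinase that starts autophagosome formation, showed the largest difference of the set. It had 116, 102 and 106 CPM in ACSS2 shRNA libraries 1, 2 and 3, against 47.6, 47.8 and 60.4 CPM in control libraries 1, 2 and 3. The lowest ACSS2 shRNA library was well above the highest control library. With pairing the log2 fold change was 1.06 (SE 0.12, adjusted p = 0.000136), a fold of 2.09, and without it 1.05 (SE 0.16, adjusted p = 0.0702). The paired value was 0.94 without number 1 and 1.19 without number 3, and it passed in each case. In the authors' deposited table ULK1 has a log2 fold change of 1.03 with a q of 7.14e-05, and it is the only gene of the 40 with a q under 0.05. The share of all genes with such a q was not computed. ULK1 (gene ID 8408) lies on chromosome 12, 131894622 to 131923150 (RefSeq, GRCh38.p14).

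The promoter of ULK1 is printed because it belongs to the gene that moved most. The sequence covers 250 bases before to 50 after the start of the gene, at chr12:131894372-131894671 on the plus strand of GRCh38.p14, from RefSeq. Capitals mark the GC box GGGCGG on either strand, of which there are 5, and 78.3% of its bases are G or C.
ULK1: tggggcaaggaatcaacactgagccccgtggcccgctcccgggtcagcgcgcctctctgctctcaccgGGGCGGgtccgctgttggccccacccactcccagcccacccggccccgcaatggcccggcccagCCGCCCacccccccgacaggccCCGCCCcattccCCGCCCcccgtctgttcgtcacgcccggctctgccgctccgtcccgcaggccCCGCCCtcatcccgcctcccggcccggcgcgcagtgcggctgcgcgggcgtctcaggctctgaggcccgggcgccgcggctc

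The second kinase, ULK2, was nearly silent. It had 1, 1 and 2 counts in ACSS2 shRNA libraries and 0, 0 and 1 count in control libraries, so that ULK1 made up over 99.9% of the TPM of both kinases in all 6 libraries. No fold change is given at such counts. ATG13, the adaptor that joins ULK1 to its complex, had 177, 128 and 150.2 CPM in ACSS2 shRNA libraries, against 131, 87.3 and 112 CPM in control libraries. The groups overlap, since ACSS2 shRNA library 2 lies below control library 1, while each ACSS2 shRNA library exceeds the control library of its number. ATG13 (chromosome 11, 46617553 to 46674518) rose by a log2 fold change of 0.47 (SE 0.11, adjusted p = 0.00773), against an unpaired adjusted p of 0.356. RB1CC1, the scaffold known as FIP200, had 22.8, 41.7 and 22.5 CPM in ACSS2 shRNA cells and 18.9, 32.3 and 19.4 CPM in control cells. Number 2 was high in both groups, the groups overlap, and the gene did not pass (log2 fold change 0.29, adjusted p = 0.104 paired). ATG101, which stabilises ATG13, was the only tested member of the complex with a negative value. It had 19.2, 18.1 and 25.8 CPM in ACSS2 shRNA cells and 22.7, 24.4 and 28.3 CPM in control cells, with a log2 fold change of -0.27 (adjusted p = 0.147 paired).

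**Figure D2:**
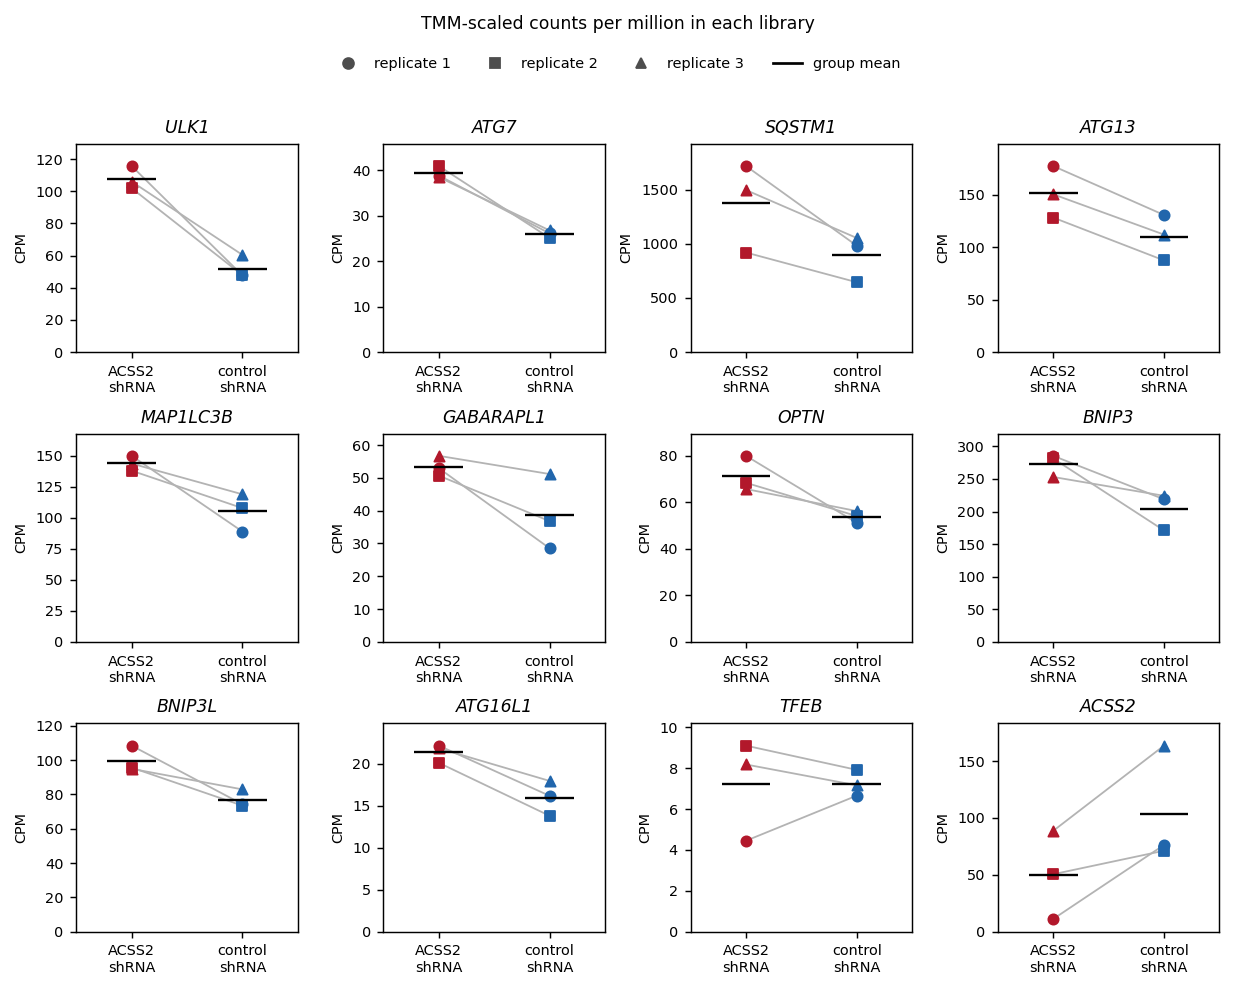
CPM in each library for the 10 genes called in the paired fit, TFEB and ACSS2, with ACSS2 shRNA left and control shRNA right in each panel. Grey lines join libraries of the same number and black bars are group means. Every line of the 10 genes slopes down to the right, from the ACSS2 shRNA to the control library, and 3 of them (ATG13, SQSTM1 and GABARAPL1) have groups that overlap.

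None of the 6 genes of the lipid kinase complex passed in either fit. BECN1, the scaffold of the complex, had 53.0, 51.4 and 59.0 CPM in ACSS2 shRNA libraries, against 55.0, 61.8 and 65.3 CPM in control libraries. Each ACSS2 shRNA library was below its control, within groups that overlap (log2 fold change -0.16, SE 0.11, adjusted p = 0.328 paired). PIK3C3, the kinase itself, averaged 27.8 ± 2.24 CPM in ACSS2 shRNA cells and 26.6 ± 1.55 CPM in control cells (SD, n = 3 each). Its regulatory partner PIK3R4 averaged 26.3 ± 1.25 CPM in ACSS2 shRNA cells and 27.8 ± 2.55 CPM in control cells. ATG14 and UVRAG, which direct the complex to early or late steps, had paired log2 fold changes of 0.04 and 0.14. AMBRA1, a BECN1 partner, had 54.8, 43.0 and 51.8 CPM in ACSS2 shRNA cells and 54.3, 34.5 and 44.1 CPM in control cells. Number 1 was highest in both groups, and the paired log2 fold change was 0.19 (SE 0.12, adjusted p = 0.265). The median over the complex was 0.05, near the 0.02 of all genes tested.

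The genes that recruit and supply the membrane also had 0 of 5 called, and 4 of the 5 values were positive. With limma on TPM and pairing ATG9A (adjusted p = 0.0272) and ATG2A (adjusted p = 0.0387) passed. In that fit, also used below, the median log2 fold change of all genes tested was 0.11, and 68.2% of all calls were higher. ATG9A, the lipid scramblase of the vesicles that seed the membrane, had 159.7, 112 and 104 CPM in ACSS2 shRNA cells and 153, 83.0 and 85.6 CPM in control cells. Number 1 was high in both groups, and the log2 difference within numbers was 0.06 in number 1 and 0.44 in number 2. Its paired log2 fold change of 0.26 did not pass (adjusted p = 0.122), but it passed when number 1 was left out. ATG2A, a lipid transfer protein, had 191, 179.6 and 225 CPM in ACSS2 shRNA cells and 161, 150.0 and 201 CPM in control cells (log2 fold change 0.22, adjusted p = 0.158 paired). Every number gave a higher ACSS2 shRNA value, within overlapping groups, and its paralog ATG2B had a value of 0.15. WIPI1 and WIPI2 bind the lipid made by PIK3C3, and they had opposite signs. WIPI1 had 82.9, 97.6 and 127 CPM in ACSS2 shRNA cells and 65.4, 91.7 and 116 CPM in control cells (log2 fold change 0.19, adjusted p = 0.238 paired). WIPI2 had 77.0, 70.1 and 87.7 CPM in ACSS2 shRNA cells and 91.7, 84.7 and 88.6 CPM in control cells (-0.18, adjusted p = 0.257 paired). Neither difference passed.

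In the conjugation step ATG7 and ATG16L1 rose, 0 of the 10 genes fell and 8 did not pass. The share called, 2 of 10 (20%), is near the 12.7% of all genes. With DESeq2 and pairing 1 of 10 was called higher (10%, against 8.64% of all genes). ATG7, the single E1-like enzyme that activates both ATG12 and the ATG8 proteins, had 38.8, 40.9 and 38.4 CPM in ACSS2 shRNA libraries, against 26.1, 25.1 and 26.7 CPM in control libraries. The groups do not overlap, and the spread within each is small (39.4 ± 1.32 CPM in ACSS2 shRNA cells and 26.0 ± 0.829 CPM in control cells, SD, n = 3 each). The log2 fold change was 0.60 in both fits, with an adjusted p of 0.143 unpaired and 0.00351 paired, and the paired call held without any 1 number. The authors' deposited table gives ATG7 a log2 fold change of 0.57 with a q of 0.0591. ATG7 (gene ID 10533) lies on chromosome 3, 11272397 to 11576353, and 18.1% of its exonic bases overlap VGLL4 on the opposite strand in GENCODE v29. VGLL4 had 110.1, 81.7 and 81.2 CPM in ACSS2 shRNA cells and 61.2, 41.0 and 53.9 CPM in control cells, and it rose by a log2 fold change of 0.81 (adjusted p = 0.000555). Its counts were 220.0% of those of ATG7. The labels do not state whether the libraries keep strand, and reads of VGLL4 in the shared bases cannot be told apart from ATG7 reads if they do not.

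The ATG7 promoter, at chr3:11272147-11272446 on the plus strand of GRCh38.p14 (RefSeq), is shown because ATG7 has the second smallest p of the set in the paired edgeR fit. With DESeq2 or limma and pairing SQSTM1 has a smaller p than ATG7. It holds 2 GC boxes, in capitals, and 65.0% of its bases are G or C.
ATG7: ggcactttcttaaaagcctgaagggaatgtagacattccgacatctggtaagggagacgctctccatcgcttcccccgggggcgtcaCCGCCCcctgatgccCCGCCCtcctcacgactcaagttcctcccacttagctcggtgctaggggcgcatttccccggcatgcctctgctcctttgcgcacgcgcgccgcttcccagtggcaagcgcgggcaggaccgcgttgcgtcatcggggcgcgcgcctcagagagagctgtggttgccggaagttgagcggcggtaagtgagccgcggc

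ATG16L1 carries the conjugate of ATG12 and ATG5 to the membrane. It had 22.1, 20.1 and 21.8 CPM in ACSS2 shRNA libraries, against 16.2, 13.8 and 17.9 CPM in control libraries, with no overlap. It rose by a log2 fold change of 0.43 (SE 0.13, adjusted p = 0.0325), against 0.361 unpaired, and DESeq2 with pairing gave 0.113. Its partners did not pass. ATG5 had 22.8, 21.3 and 20.6 CPM in ACSS2 shRNA cells and 16.5, 23.1 and 14.8 CPM in control cells (log2 fold change 0.27, adjusted p = 0.206 paired). ATG12 had 37.6, 39.0 and 43.6 CPM in ACSS2 shRNA cells and 24.5, 41.1 and 38.0 CPM in control cells (0.24, adjusted p = 0.225 paired). In both genes number 2 went against numbers 1 and 3, with control library 2 above its ACSS2 shRNA library.

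ATG10, the E2-like enzyme for ATG12, was the lowest of the tested genes. It had 2.50, 1.76 and 0.930 CPM in ACSS2 shRNA cells and 1.71, 1.25 and 0.581 CPM in control cells. Each number was higher in ACSS2 shRNA cells, but the SE of 0.30 is wide beside the log2 fold change of 0.55 (adjusted p = 0.203 paired). ATG10 shares 6.9% of its exonic bases with RPS23 on the opposite strand, whose counts were 33323% of those of ATG10, and the strand limit given for ATG7 applies here too. It also applies to BECN1, ATG4B, ATG4D and ATG12, which share bases with opposite-strand genes that have more counts. ATG3, the E2-like enzyme for the ATG8 proteins, averaged 43.2 ± 4.72 CPM in ACSS2 shRNA cells and 40.1 ± 5.80 CPM in control cells (SD, n = 3 each). The ATG4 proteases trim ATG8 proteins before conjugation and release them afterwards. Of the 4, ATG4B had a positive value and ATG4A, ATG4C and ATG4D had negative ones, and none passed with edgeR. ATG4B had 68.9, 72.5 and 85.9 CPM in ACSS2 shRNA cells and 58.7, 60.3 and 75.6 CPM in control cells (log2 fold change 0.23, adjusted p = 0.142 paired, and 0.0368 with limma on TPM and pairing). On the TPM scale ATG4B made up 53.0%, 52.8% and 56.4% of the 4 proteases in ACSS2 shRNA libraries, against 44.6%, 47.4% and 50.1% in control libraries. The share was higher in the ACSS2 shRNA library of each number and the groups do not overlap, and it was not tested.

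Among the ATG8 genes MAP1LC3B and GABARAPL1 rose, and all 4 tested members had positive values. MAP1LC3B, whose lipidated protein is the usual autophagosome marker, had 149.8, 138 and 144 CPM in ACSS2 shRNA libraries, against 88.8, 108 and 119 CPM in control libraries. The groups do not overlap, and the difference was largest in number 1, where the control library was lowest. It rose by 0.46 on the log2 scale (SE 0.12, adjusted p = 0.0162), with 0.45 and an adjusted p of 0.273 in the unpaired fit. A near-identical gene, MAP1LC3B2, had between 0.188 and 0.854 CPM. Expected counts are estimates made after reads were assigned to genes, so this level does not show how many reads the 2 genes shared. GABARAPL1 had 53.0, 50.7 and 56.7 CPM in ACSS2 shRNA libraries, against 28.5, 36.8 and 51.2 CPM in control libraries. ACSS2 shRNA libraries were alike while control libraries spread, and control library 3 lies above ACSS2 shRNA library 2. It rose by 0.50 on the log2 scale (SE 0.14, adjusted p = 0.0218), with 0.46 and an adjusted p of 0.407 in the unpaired fit. The differences within numbers 1, 2 and 3 were 0.89, 0.46 and 0.15. MAP1LC3B lies on chromosome 16, 87392336 to 87404774, and GABARAPL1 on chromosome 12, 10212877 to 10223128.

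GABARAPL2 came nearest to the threshold among the genes that did not pass. It had 33.2, 45.8 and 49.2 CPM in ACSS2 shRNA cells and 24.2, 33.9 and 45.6 CPM in control cells (log2 fold change 0.33, SE 0.12, adjusted p = 0.0655 paired), and it passed with limma on TPM and pairing (adjusted p = 0.0135). GABARAP had 249, 225 and 243 CPM in ACSS2 shRNA cells and 231, 178 and 231 CPM in control cells (0.17, adjusted p = 0.295 paired). In both genes the groups overlap and every number gave a higher ACSS2 shRNA value. MAP1LC3A had 0, 1 and 1 count in ACSS2 shRNA libraries and 0 counts in all control libraries, which is too little for a fold change. By TPM, GABARAP supplied 69.4%, 66.0% and 66.3% of the ATG8 transcripts in ACSS2 shRNA libraries, against 77.3%, 67.1% and 68.1% in control libraries. MAP1LC3B supplied 15.4%, 15.1% and 14.6% in ACSS2 shRNA libraries, against 11.0%, 15.1% and 13.0% in control libraries. The order within the family was the same in all 6 libraries for these 2, with GABARAP first and MAP1LC3B next.

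Of the 7 cargo receptors 4 rose (57.1%, against 12.7% of all genes). With DESeq2 and pairing 3 were called higher (42.9%, against 8.64% of all genes), and BNIP3L was lost (adjusted p = 0.0541). SQSTM1 (p62) binds ubiquitinated cargo and was the most abundant gene of the set. It had 1720.3, 920.5 and 1498 CPM in ACSS2 shRNA libraries, against 983, 645 and 1055 CPM in control libraries. Number 2 was lowest in both groups and the groups overlap, while within each number ACSS2 shRNA was higher. It rose by 0.61 on the log2 scale (SE 0.13, adjusted p = 0.00563), with 0.63 and an adjusted p of 0.365 in the unpaired fit. SQSTM1 (chromosome 5, 179806393 to 179838078) shares 105 exonic bases, 1.4% of its own, with MGAT4B on the opposite strand. MGAT4B rose by a log2 fold change of 1.47 (adjusted p = 1.48e-05), to 600.1, 478 and 516 CPM in ACSS2 shRNA libraries, against 205, 162 and 208 CPM in control libraries. Its part in the SQSTM1 value was not tested.

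OPTN, the ubiquitin-binding receptor that also acts on mitochondria, had 80.1, 68.5 and 65.8 CPM in ACSS2 shRNA libraries, against 51.2, 54.1 and 56.3 CPM in control libraries. The groups do not overlap, and OPTN (chromosome 10, 13100082 to 13138308) rose by a log2 fold change of 0.40 (SE 0.12, adjusted p = 0.0261), against 0.292 unpaired. BNIP3 and BNIP3L are receptors anchored in the outer mitochondrial membrane and are known targets of hypoxia signalling. BNIP3 had 285, 281 and 253 CPM in ACSS2 shRNA libraries, against 219, 171 and 224 CPM in control libraries. BNIP3L had 108, 95.7 and 94.9 CPM in ACSS2 shRNA libraries, against 74.3, 73.5 and 82.9 CPM in control libraries. Neither pair of groups overlaps. BNIP3 (chromosome 10, 131967684 to 131981923) rose by a log2 fold change of 0.43 (SE 0.13, adjusted p = 0.0283), and BNIP3L (chromosome 8, 26383054 to 26413127) by 0.37 (SE 0.11, adjusted p = 0.0299). Unpaired, their adjusted p-values were 0.324 and 0.314. BNIP3L shares 7.7% of its exonic bases with PNMA2 on the opposite strand, which fell in the paired edgeR fit (log2 fold change -0.39, adjusted p = 0.0408), but not with DESeq2 and pairing (adjusted p = 0.0676) or limma and pairing (adjusted p = 0.214).

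The other 3 receptors did not pass. NBR1, which works beside SQSTM1, averaged 184 ± 24.7 CPM in ACSS2 shRNA cells and 174 ± 40.1 CPM in control cells (SD, n = 3 each). TAX1BP1 averaged 56.2 ± 8.60 CPM in ACSS2 shRNA cells and 52.2 ± 13.0 CPM in control cells. CALCOCO2 (NDP52), which targets bacteria and damaged mitochondria, was the only receptor with a negative log2 fold change, of -0.13 (adjusted p = 0.412 paired). It had 74.3, 83.1 and 87.4 CPM in ACSS2 shRNA cells and 80.1, 94.5 and 92.8 CPM in control cells, with each number lower in ACSS2 shRNA cells and the groups overlapping.

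The 2 transcription factors were not called by edgeR. TFEB had 4.45, 9.11 and 8.18 CPM in ACSS2 shRNA libraries, against 6.66, 7.92 and 7.16 CPM in control libraries. The group means were both 7.25 CPM, and number 1 was lower while numbers 2 and 3 were higher in ACSS2 shRNA cells. Its paired log2 fold change was -0.05 (SE 0.20, adjusted p = 0.892). TFE3 had 133, 145 and 144 CPM in ACSS2 shRNA libraries, against 112, 111 and 135 CPM in control libraries. Each number was higher in ACSS2 shRNA cells, with ACSS2 shRNA library 1 below control library 3, and the paired log2 fold change was 0.24 (SE 0.11, adjusted p = 0.133). TFE3 passed with limma on TPM and pairing (adjusted p = 0.031). Both proteins are controlled mainly by phosphorylation and nuclear entry, which transcript levels do not measure.

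Levels between genes are compared in TPM, which is per transcript length. SQSTM1 stood at 951 ± 297 TPM in ACSS2 shRNA cells and 572 ± 119 TPM in control cells (SD, n = 3 each), and GABARAP at 537 ± 37.3 TPM in ACSS2 shRNA cells and 444 ± 44.8 TPM in control cells. BNIP3 followed, at 325 ± 38.2 TPM in ACSS2 shRNA cells and 224 ± 22.6 TPM in control cells. These means are separated by more than their SDs within each group. ULK1 stood at 39.4 ± 3.88 TPM in ACSS2 shRNA cells and 17.7 ± 2.21 TPM in control cells, and ATG10 at 1.28 ± 0.695 TPM in ACSS2 shRNA cells and 0.897 ± 0.405 TPM in control cells. SQSTM1 made up 67.4%, 52.4% and 65.1% of the summed TPM of the 7 receptors in ACSS2 shRNA libraries, against 60.1%, 50.8% and 59.3% in control libraries. Summed over the 5 genes of the ULK1 complex, the level was 156, 135 and 137 TPM in ACSS2 shRNA libraries, against 99.5, 95.3 and 103 TPM in control libraries. The ATG8 family summed to 836, 789 and 771 TPM in ACSS2 shRNA libraries, against 607, 584 and 690.1 TPM in control libraries. The receptors summed to 1850, 1245 and 1467 TPM in ACSS2 shRNA libraries, against 1024, 861 and 1117 TPM in control libraries. The lipid kinase complex summed to 121, 114 and 116 TPM in ACSS2 shRNA libraries, against 102, 117 and 113 TPM in control libraries. Of the sums of the 7 steps it was the only one that overlapped between the groups. For conjugation the gap was narrow, with 228.6 TPM in ACSS2 shRNA library 3 against 227.3 TPM in control library 2. Such sums were not made for other groups of genes. The TPM scale puts the median of all genes 0.11 (log2) above 0, and the sums were not tested. In these bulk libraries a change in all cells and a change in some of the cells cannot be told apart.

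**Figure D3:**
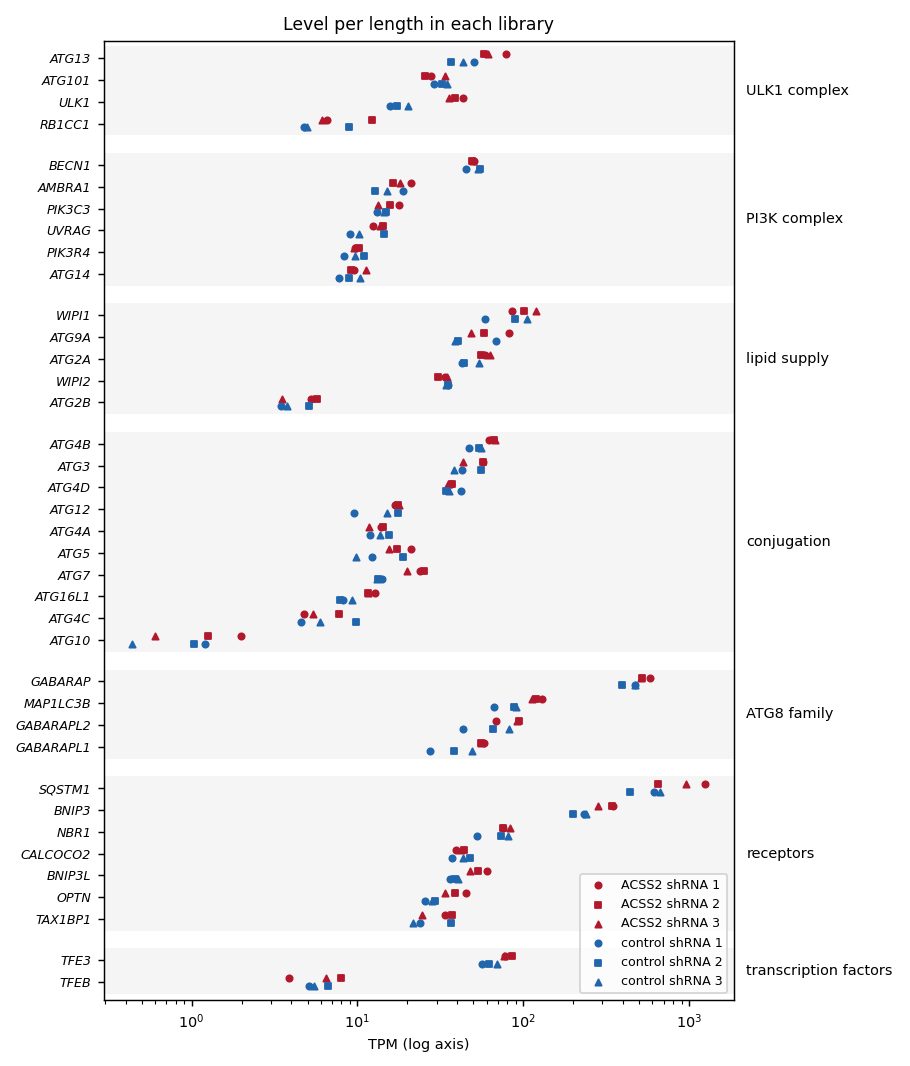
TPM of each tested autophagy gene in each library, on a log axis, by step of the pathway. ACSS2 shRNA libraries are drawn above control libraries, with a marker for each replicate number. SQSTM1 and GABARAP stand at the high end and ATG10 at the low end in both groups.

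The size of the difference varied with the replicate number. Over the 38 tested genes the median log2 difference was 0.27 in number 1, 0.23 in number 2 and 0.16 in number 3, against 0.04, -0.00 and 0.02 over all genes tested. Of the 38, 20 were higher in ACSS2 shRNA cells in all 3 numbers (52.6%, against 30.5% of all genes tested) and 5 were lower in all 3 (13.2%, against 27.3%). Groups did not overlap for 7 of the 38 with all ACSS2 shRNA libraries higher (18.4%, against 10.7%) and for 0 with all lower (against 9.62%). All 10 genes that rose had their smallest difference in number 3, while 6 had their largest in number 1 and 4 in number 2. Of all 38 tested members 20 had their smallest in number 3, and 19, 13 and 6 had their largest in numbers 1, 2 and 3. The 10 were called from these same differences, so their pattern over the numbers is no separate support. The shares over all genes tested were not computed. ACSS2 itself differed most in number 1 and least in number 2.

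**Figure D4:**
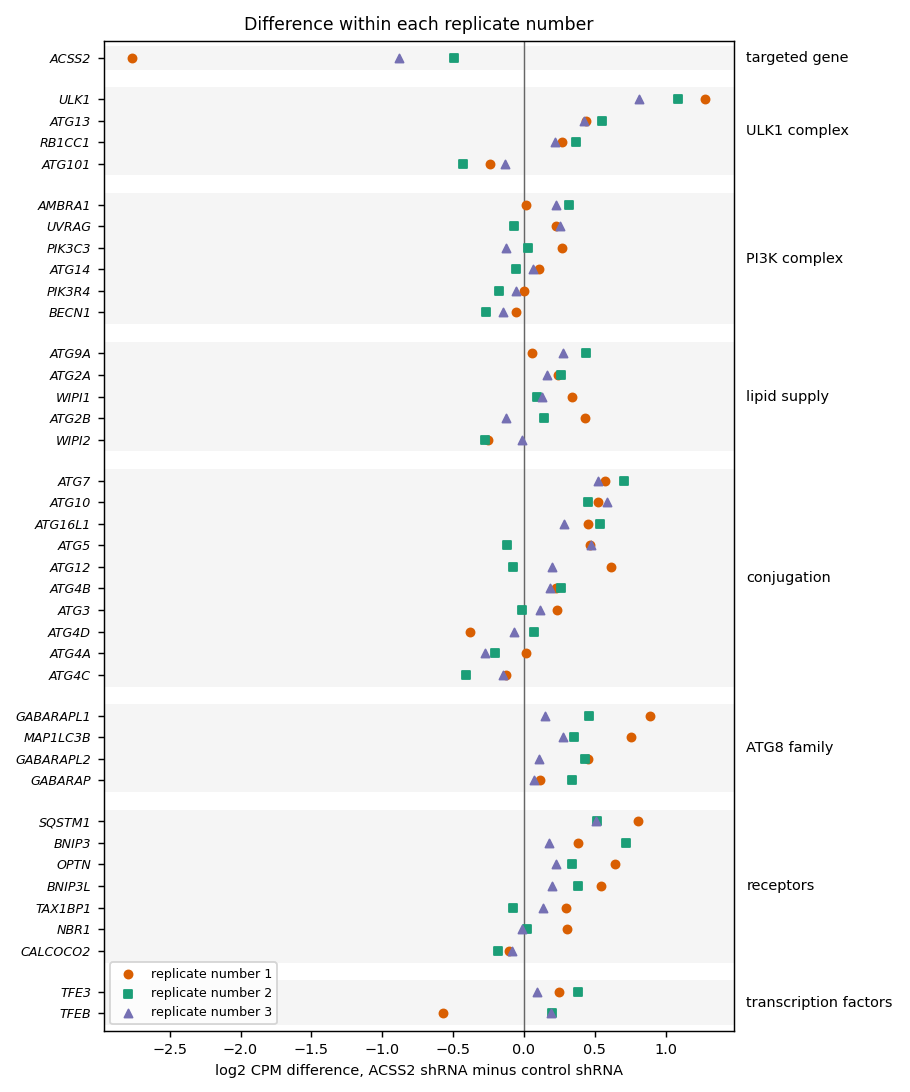
Log2 CPM of the ACSS2 shRNA library minus that of the control library with the same replicate number, for ACSS2 and each tested autophagy gene. The 3 symbols are the 3 replicate numbers. All 3 lie to the right of 0 for the 10 genes that rose, and ULK1 has 1.28, 1.09 and 0.81.

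The replicate number itself also moved autophagy genes, by a test that was added after the data had been seen. By a joint F test of both replicate terms in the paired edgeR fit, 12 of the 38 genes differed between numbers (31.6%), against 38.7% of all genes tested, a share below the background. They were ATG13, RB1CC1, AMBRA1, WIPI1, ATG2B, ATG9A, ATG4C, ATG10, GABARAPL2, SQSTM1, NBR1 and TAX1BP1. The log2 differences of numbers 2 and 3 from number 1 were 0.82 and 0.0095 for RB1CC1 (adjusted p = 0.00123). They were -0.70 and -0.73 for ATG9A (adjusted p = 0.00198), and -0.76 and -0.05 for SQSTM1 (adjusted p = 0.00538). Each p is that of the joint test and not of a single difference. Only ATG13 and SQSTM1 were called both by number and by group.

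Promoters of the set were searched for short motifs of factors known to act on autophagy or growth genes. RefSeq promoters (300 bases, GRCh38.p14) were found for 35 of the 40 genes, and the counts below take the 34 of these that were tested, on both strands. The letters CACGTG, an E-box that TFEB and TFE3 can bind, were in 3 (8.82%), against 12.5% of 10589 tested genes with a promoter. They were ATG14, ATG3 with 2 copies, and BNIP3. The FOXO core TGTTTAC was in 1 (2.94%, against 3.52%), the promoter of CALCOCO2. The cyclic AMP response element TGACGTCA was in 1 (2.94%, against 3.72%), that of GABARAPL1. The GC box GGGCGG was in 26 (76.5%, against 76.9%). No motif was more frequent in the set than among all genes. Of the 9 genes that rose and have a promoter in the table, 1 held the E-box, 1 the cyclic AMP response element, 0 the FOXO core and 8 the GC box.

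The matches other than GC boxes are printed as windows of 30 bases, with the motif in capitals, on the strand of the gene and by GRCh38.p14 position. They are a description of letters and do not show that a factor binds.
GABARAPL1, chr12:10212835-10212864, plus strand: gggctcgcggggTGACGTCAcagcccgacg
BNIP3, chr10:131982040-131982069, minus strand: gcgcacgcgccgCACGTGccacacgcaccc
ATG14, chr14:55411834-55411863, minus strand: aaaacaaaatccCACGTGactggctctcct
ATG3, chr3:112561940-112561969, minus strand: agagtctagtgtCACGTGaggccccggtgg
ATG3, chr3:112561963-112561992, minus strand: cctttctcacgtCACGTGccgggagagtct
CALCOCO2, chr17:48830797-48830826, plus strand, motif on the opposite strand: aaaaaaagaaaaGTAAACAgcttcttccag

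A wider list of 84 autophagy genes outside the set, of which 81 were tested, gave the surroundings. It too was chosen with earlier results of these data known. In the unpaired fit 0 passed. DESeq2 without pairing called 0 higher (against 1.54% of all genes) and 4 lower (4.94%, against 2.22%). The 4 were RUBCN, TEX264, NCOA4 and CARM1, described below. In the paired fit 18 rose (22.2%, against 12.7% of all genes) and 7 fell (8.64%, against 12.4%), and the median log2 fold change was 0.14. Leaving out number 2 reduced the genes that rose to 6, and over all genes it reduced the higher calls from 1657 to 664. Of 14 genes for fusion with lysosomes 6 rose (42.9%, against 12.7% of all genes) and 0 fell. Of the subunits of the HOPS tethering complex VPS39, VPS18, VPS33A and VPS11 rose. VPS11 had a log2 fold change of 0.39 (adjusted p = 0.0212). VPS16 (0.02, adjusted p = 0.917) and VPS41 (-0.14, adjusted p = 0.438) did not pass. VPS39 had 52.4, 47.5 and 47.7 CPM in ACSS2 shRNA cells and 34.3, 29.7 and 36.5 CPM in control cells, without overlap (log2 fold change 0.56, adjusted p = 0.00499). VPS18 and VPS33A rose by 0.57 (adjusted p = 0.00634) and 0.49 (adjusted p = 0.00756), with overlapping groups.

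Of 11 other genes of the early machinery 4 rose and 1 fell (36.4% and 9.09%, against 12.7% and 12.4% of all genes). WDR45, the WIPI4 partner of ATG2 proteins, rose by 0.56 (adjusted p = 0.00397), and TMEM41B, a lipid scramblase of the endoplasmic reticulum (ER), rose by 0.64 (adjusted p = 0.00661). The gene that fell was RUBCN, which encodes Rubicon, a known inhibitor of autophagosome maturation. RUBCN had 26.8, 32.4 and 35.7 CPM in ACSS2 shRNA cells and 48.8, 51.9 and 53.6 CPM in control cells. The groups do not overlap, and the log2 fold change was -0.70 (adjusted p = 0.135) unpaired and -0.71 (adjusted p = 0.0012) paired.

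Of 16 other selective receptors 2 rose and 2 fell (12.5% each, against 12.7% and 12.4% of all genes), which is the background share. TEX264, a receptor for ER turnover, had 42.3, 30.6 and 41.8 CPM in ACSS2 shRNA cells and 111, 57.5 and 83.0 CPM in control cells (log2 fold change -1.10, adjusted p = 0.000136). CALCOCO1, which also serves ER turnover, had 84.8, 77.6 and 86.4 CPM in ACSS2 shRNA cells and 37.8, 29.2 and 62.4 CPM in control cells (1.01, adjusted p = 0.00084). NCOA4, the receptor that delivers ferritin for degradation, had 54.9, 51.3 and 72.1 CPM in ACSS2 shRNA cells and 109, 84.5 and 101 CPM in control cells (-0.73, adjusted p = 0.0012). The groups overlap in none of these 3 genes, which were named for their small p.

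Of 31 genes of the mTORC1 and AMPK pathways, which set autophagy by nutrient supply, 5 rose and 2 fell (16.1% and 6.45%, against 12.7% and 12.4% of all genes). The stress-induced mTORC1 inhibitor SESN3 rose by 0.76 (adjusted p = 0.0115), FNIP2, a folliculin partner, by 0.51 (adjusted p = 0.0135) and TSC2, an mTORC1 inhibitor, by 0.43 (adjusted p = 0.0184). The genes that fell were AKT1S1 (PRAS40), which also inhibits mTORC1, by 0.53 on the log2 scale (adjusted p = 0.0288), and the AMPK subunit PRKAA2, by 0.44 (adjusted p = 0.0362). The call of PRKAA2 was lost with DESeq2 and pairing (adjusted p = 0.0722) and with limma and pairing (adjusted p = 0.227). Of 9 transcriptional regulators 1 rose and 2 fell (11.1% and 22.2%, against 12.7% and 12.4% of all genes). CARM1, an arginine methyltransferase known as a coactivator of TFEB, had 162, 169 and 190.2 CPM in ACSS2 shRNA cells and 346, 284 and 308 CPM in control cells. The groups are far apart, and CARM1 fell by 0.85 on the log2 scale (SE 0.12, adjusted p = 0.000555), with an unpaired adjusted p of 0.0991. MITF, a relative of TFEB, fell by 0.49 (adjusted p = 0.0209; 0.0949 with limma and pairing), and the forkhead factor FOXO4 rose by 0.56 (adjusted p = 0.00738).

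**Figure D5:**
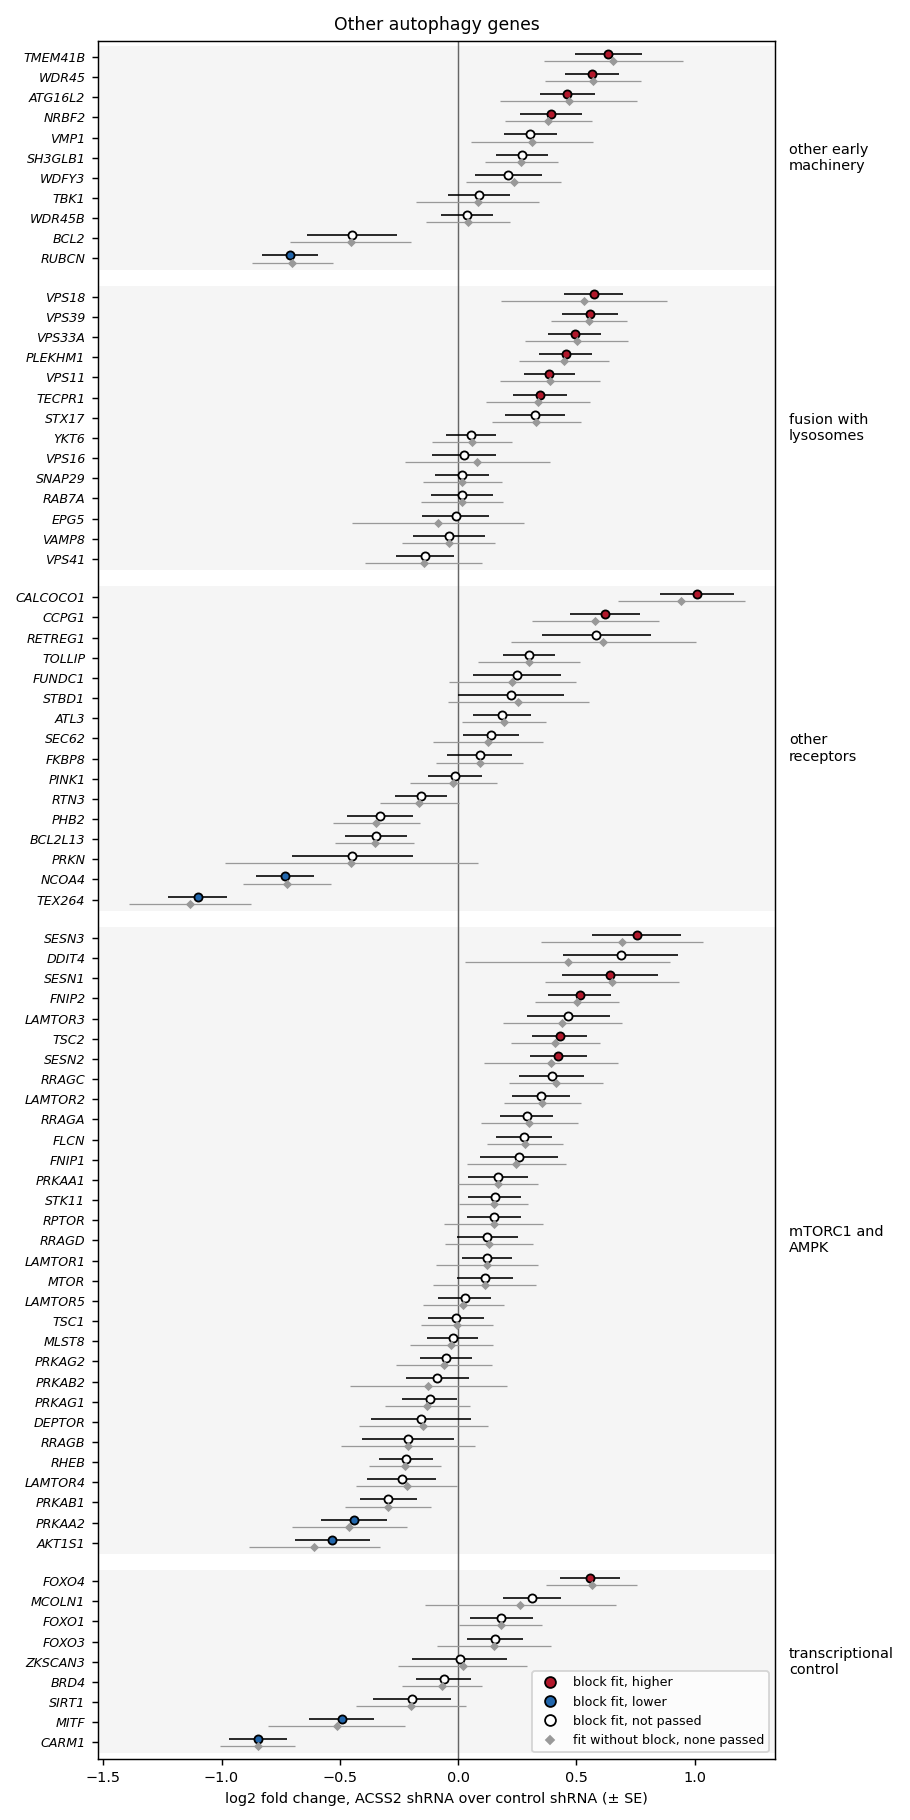
Log2 fold change of the 81 tested genes of the wider list, ACSS2 shRNA over control shRNA, by list, in the same symbols as the plot of the autophagy set. Red circles are the 18 genes that rose and blue circles the 7 that fell in the paired fit. Fusion genes have filled points on the positive side only, and the receptors have them on both sides, from -1.10 for TEX264 to 1.01 for CALCOCO1.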

How the data were processed

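Polyadenylated RNA of 6 cultures was sequenced on DNBSEQ, per the labels. The authors deposited expected counts per gene (estimated reads, rounded here to whole counts) and TPM, made with HISAT, Bowtie2 and RSEM per the submitters' processing notes. Their own comparison, from DESeq2 per the file headers, was deposited as a log2 fold change, p-value and q-value per gene. The 6 FPKM columns were not used, and 565 lines of spilled annotation text were left out. Between 10.47% and 13.01% of the counts of a library were not whole.

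Counts were tested in R 4.3.3 with edgeR 4.0.16 (quasi-likelihood F test, TMM factors, filterByExpr with minimum count 10 and minimum total 15) and Benjamini-Hochberg adjustment over 13003 genes, called under 0.05. A positive log2 fold change means higher in ACSS2 shRNA cells. The paired fit adds the replicate number, since the labels' batch tag gives both groups the same numbers. Deviations from group means correlated across genes by 0.716, 0.494 and 0.740 within numbers, and by at most -0.01 between numbers. Levels are CPM with TMM factors. Alternatives used limma 3.58.1 on log2(TPM + 1) or log2(TPM + 0.1) and DESeq2 1.42.0. Genes varied between replicates by 26.6% unpaired and by 11.85% paired (edgeR's common biological coefficient of variation). The fits were tested on simulated counts with a replicate effect built in. The unpaired fit recovered 4% of changes of 1 on the log2 scale and 89% of changes of 2, with 0 false calls. The paired fit recovered 95% and 100%, with 8 false calls among 12931 genes. Because the replicate effect was built in, this does not show which fit suits the real libraries. P-values of the unpaired fit are set against the spread between these cultures. Those of the paired fit are set against the spread that remains after the replicate number is taken out.

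Exon overlaps come from GENCODE v29, and promoters and gene positions from RefSeq. Members and lists were chosen with earlier results of these data known. Values in each library are given for the 24 members with the smallest paired p, and for ULK1, ULK2, TFEB, TFE3, SQSTM1 and the 5 ATG8 genes. Other genes are ACSS2 and the 3 with the smallest paired p of each wider list. BECN1, CALCOCO2, AKT1S1, PRKAA2, VPS11, VPS16, VPS41, VGLL4, MGAT4B, RPS23, PNMA2, MAP1LC3B2, MBP and PECAM1 were added after their values were seen.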

Additional observations from a re-analysis of the deposited data

How the results depend on the processing

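The replicate block (the paired fit) decided most calls. Over all genes, counts of higher and lower calls were 3 and 6 unpaired, 1657 and 1608 with the block, 199 and 288 with DESeq2, 1119 and 1390 with DESeq2 and the block, 12 and 27 without a low-count filter, 1599 and 1895 without it and with the block, 6 and 6 with limma on log2(TPM + 1) or log2(TPM + 0.1), and 2302 and 1071 with limma and the block. They were 0 to 1 and 0 to 5 when 1 library was left out. With the block they were 1382 and 1383 without number 1, 664 and 917 without number 2, and 1555 and 1554 without number 3. Of the 38 autophagy genes, 0 were higher unpaired, 10 with the block with and without the filter, 2 with DESeq2, 8 with DESeq2 and the block, 15 with limma and the block, and 6, 2 and 10 without number 1, 2 or 3. None was lower in any of these. In the wider list 18, 15, 20 and 26 genes were higher with the block in edgeR, in DESeq2, without the filter and in limma, and 14, 6 and 17 without number 1, 2 or 3. There 7, 6, 8 and 5 were lower, 4 with DESeq2 unpaired, and 7, 5 and 7 without number 1, 2 or 3. The median log2 fold change of the 38 genes was 0.19 unpaired, 0.29 and 0.31 with limma at the larger and smaller pseudocount, where the median of all genes was 0.11 and 0.12, and 0.13 to 0.21 without 1 library. Sign changes were seen in genes that were not called. On the TPM scale PIK3R4 was at 0.029 and 0.032, and TFEB at 0.040 and 0.039, at the larger and smaller pseudocount. Leaving out 1 library gave -0.078 to 0.57 for RB1CC1, -0.018 to 0.11 for PIK3C3, -0.017 to 0.25 for UVRAG, -0.11 to 0.18 for ATG14, -0.012 to 0.34 for AMBRA1, -0.019 to 0.38 for WIPI1, -0.060 to 0.30 for ATG2B, -0.0070 to 0.57 for ATG9A, -0.48 to 0.027 for ATG4C, -0.068 to 0.26 for NBR1, -0.026 to 0.29 for TAX1BP1 and -0.22 to 0.24 for TFEB. Leaving out number 1 with the block gave -0.055 for PIK3C3, -0.0041 for ATG14, -0.0058 for NBR1 and 0.19 for TFEB. The cause of these changes was not tested. With 15048275 to 18608124 counts a library, the spread between replicates was 26.6% in the unpaired fit and 11.85% with the block.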
